A study of Mus musculus with 2 samples.

Results

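Interferon-stimulated genes are the genes that cells switch on when interferon binds its receptors. A list of 43 of them was followed in mouse liver endothelial cells and in the immune cells sorted with them. Control and Maf LSEC-KO livers were compared. The genes of this and later lists were chosen by name, with earlier results of these data known. Comparisons of these lists with all genes are therefore descriptions. Of the 43, 41 were found by symbol among the 32285 genes of the count tables and are described here, and Mx1 and Mx2 were not analysed here. Each condition gave 1 library of 3′ single-cell RNA sequencing (scRNA-seq), rich in liver sinusoidal endothelial cells (LSECs). Captured mRNA molecules carry a unique molecular identifier (UMI), by which they are counted. Livers of 3 mice were pooled for each library, digested with collagenase and sorted with magnetic beads against CD146, an endothelial surface protein. In the Maf LSEC-KO mice (Clec4g-iCre tg/wt with Maf fl/fl), Cre is driven by Clec4g, a gene of LSECs, so that Maf, the gene of the transcription factor c-Maf, is deleted in LSECs. Controls, labelled WT, were littermates without Cre (Clec4g-iCre wt/wt) that carried Maf fl/fl or Maf fl/wt, so both groups carried floxed Maf alleles. Mice of both sexes, 3 or 6 months old, were used in the study, and the age and sex of each pool are not given in the sources used here.

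The question that the comparison addresses is how deletion of Maf in LSECs changes their gene expression, seen here for 1 defensive programme. There was 1 library per condition, so no difference between conditions could be tested against the spread between animals, and no p-value is given. The 95% intervals of member shares, levels and ratios are exact Poisson intervals and cover counting error only. Differences between genotypes cannot be told apart from differences between the pools, their processing or their sequencing.

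Interferons are secreted alarm proteins. Type I interferons signal through the receptor subunits encoded by Ifnar1 and Ifnar2 and the kinases JAK1 and TYK2 to a complex with STAT2 and IRF9, which binds the interferon-stimulated response element (ISRE). Interferon gamma, the type II interferon, signals through Ifngr1 and Ifngr2, JAK1 and JAK2, and its response genes often carry the gamma-activated sequence (GAS). Many response genes can be induced by either route, and LSECs, which line the liver capillaries and take up material from the blood, are among the cells that respond.

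The control library held 5664 barcodes and 47681895 UMIs, and the Maf LSEC-KO library held 7091 barcodes and 89872764 UMIs, with 10 barcode sequences in both. After filtering, 3679 control and 3158 Maf LSEC-KO LSECs were compared, with a median of 8994 and 14041 UMIs per cell. Maf itself was at 3519 CPM in control and 122 CPM in Maf LSEC-KO LSECs, in the direction of the labels. The LSEC genes Clec4g, Stab2, Lyve1 and Fcgr2b all had UMIs in both libraries, and their summed level was 7992 CPM in control and 2333 CPM in Maf LSEC-KO cells. CPM here are UMIs of a gene summed over the cells of a class, per 1000000 of their UMIs outside mitochondrial and ribosomal protein genes. A 3′ library gives 1 tag per molecule, so levels were not divided by gene length.

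RefSeq promoter windows (build GRCm38.p6, from 250 bases before to 50 after a gene's start) were matched by symbol for 32 of the 41 members. Both strands were searched for the ISRE core, the letters GAAANNGAAA, and for the GAS core, TTCNNNGAA, and some matches overlap each other. Of the 32 members, 19 (59.4%) had the ISRE core in at least 1 window, against 3.99% of all 27025 genes. The GAS core was in 9 of the 32 (28.1%), against 9.55% of all genes, and 5 members had both. A match describes letters and is not evidence of binding. Stretches of 30 bases are shown for 5 members that were at least 2-fold higher in Maf LSEC-KO LSECs, read in the direction of transcription, with the bases of the ISRE core in capitals.
Isg15, chr4:156200871-156200900, minus strand: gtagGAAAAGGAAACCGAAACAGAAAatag
Oas3, chr5:120777715-120777744, minus strand: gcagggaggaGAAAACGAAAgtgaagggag
Oas1a, chr5:120907523-120907552, minus strand: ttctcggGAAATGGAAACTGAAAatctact
Apol9a, chr15:77411117-77411146, minus strand: gtgagacTTTCAGTTTCCATTTCccagttg
Gbp3, chr3:142559992-142560021, plus strand: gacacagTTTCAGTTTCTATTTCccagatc

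In the Isg15 stretch 3 overlapping matches form 1 run, and Oas1a, Apol9a and Gbp3 have 2 overlapping matches each. The next stretches are from members whose levels differed little between the libraries or by less than 2-fold, and they hold the same letters.
Stat2, chr10:128270266-128270295, plus strand: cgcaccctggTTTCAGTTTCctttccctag
Gbp2, chr3:142620594-142620623, plus strand: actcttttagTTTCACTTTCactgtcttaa
Gbp7, chr3:142530273-142530302, plus strand: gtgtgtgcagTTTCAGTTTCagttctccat
Ifit3, chr19:34583397-34583426, plus strand: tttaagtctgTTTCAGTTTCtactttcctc
Ifit3b, chr19:34607793-34607822, plus strand: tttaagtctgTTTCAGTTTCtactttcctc

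The stretches of Ifit3 and Ifit3b are identical letter for letter. These are near-identical genes, so their counts may be split between them. The GAS core is shown in capitals for Irf1, which is known as an early interferon gamma target, and for Gbp5.
Irf1, chr11:53769914-53769942, plus strand: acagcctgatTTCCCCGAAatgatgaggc
Gbp5, chr3:142496872-142496900, plus strand: tggccgttatTTCTCAGAAccaagcacag

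The ISRE core did not separate the members by their difference between libraries. It was in 5 of 9 members at least 2-fold higher in Maf LSEC-KO LSECs with a window (55.6%) and in 14 of 23 of the other members (60.9%). It was in all 6 guanylate-binding and immunity-related GTPases with a window and in 13 of the 26 other members (50%).

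The 41 members made up 0.483% of UMIs in control LSECs (151576 UMIs, interval 0.481% to 0.486%) and 0.705% in Maf LSEC-KO LSECs (277603 UMIs, interval 0.702% to 0.708%). The summed level was thus higher in the Maf LSEC-KO library, with a log2 ratio of 0.54 (interval 0.54 to 0.55). All 41 passed the filter for the fold comparison, a mean of at least 5 CPM over the libraries. Ubd (1.05 CPM in control and 9.68 CPM in Maf LSEC-KO) and Oas3 (4.56 and 28.8 CPM) were under 5 CPM in control. They passed through their Maf LSEC-KO level, and both are counted below. Of the 41 members, 12 were at least 2-fold higher in Maf LSEC-KO LSECs and 0 were at least 2-fold lower. Of all 10100 genes tested, 10.4% were higher and 4.63% were lower by that fold. The median log2 ratio was 0.65 over the members and 0.13 over all genes tested, and 32 of 41 members lay above the latter. With scaling to the UMIs of all genes, 7.40% of the genes tested were at least 2-fold higher and 6.65% lower, and the median over all genes was −0.07. Members that passed the filter under this scaling had 10 higher and 0 lower. Without the filter, 11 of the 12 stayed at least 2-fold higher. By sign alone, 35 of 41 members were higher in the Maf LSEC-KO library, where 59.6% of all genes tested were. With scaling to all genes and without the filter, 29 of the 41 were higher and 12 lower. The members were chosen with earlier results of these data known, so these comparisons with all genes are a description.

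**Figure D1:**
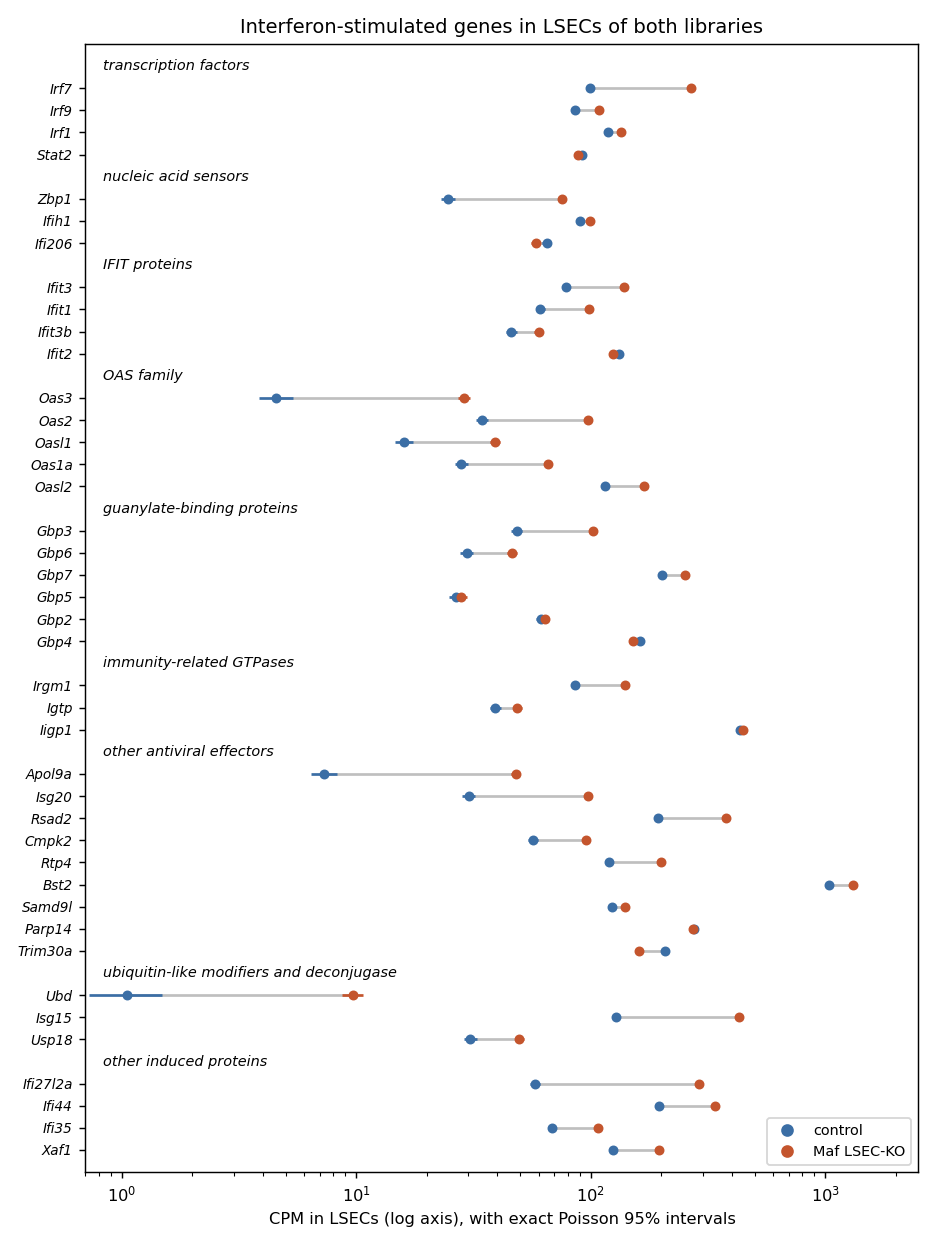
Level of each of the 41 members in LSECs, in CPM on a log axis, with control and Maf LSEC-KO as 1 point each and bars for exact Poisson 95% intervals, grouped by role. Ubd, Apol9a, Oas3, Ifi27l2a, Isg15 and Isg20 have the widest gaps, while Iigp1, Parp14, Gbp2, Gbp5 and Stat2 have points that nearly coincide.

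Transcription factors of the response were unequal. Irf7, which drives the second wave of type I interferon, was at 99.8 CPM in control and 269 CPM in Maf LSEC-KO (log2 ratio 1.43, interval 1.37 to 1.49). Irf1 was at 119 and 135 CPM, and Irf9, the DNA-binding partner of STAT2, at 85.4 and 108 CPM. Stat2 was at 91.7 and 88.3 CPM, with an interval of the log2 ratio from −0.13 to 0.02. Among the 4 factors only Irf7 was past 2-fold.

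Sensors of foreign nucleic acid were also mixed. Zbp1, a sensor of left-handed double-stranded nucleic acid that can trigger cell death, was at 24.7 CPM in control and 75.3 CPM in Maf LSEC-KO (log2 ratio 1.61). Ifih1, which encodes the RNA sensor MDA5, was at 89.7 and 99.5 CPM. Ifi206, of a family of close paralogs between which counts may be split, was at 65.0 and 58.2 CPM. Ifih1 and Ifi206 lay within 2-fold.

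The IFIT proteins bind viral RNA and hinder its translation. Ifit3 was at 78.7 CPM in control and 139 CPM in Maf LSEC-KO cells, and Ifit1 at 60.9 and 98.3 CPM. Ifit3b was at 45.9 and 59.9 CPM. Ifit2 was at 132 and 124 CPM, so that it was the 1 IFIT member with the lower level in the Maf LSEC-KO library. None of the 4 reached 2-fold.

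The OAS family includes enzymes that make the 2′-5′ oligoadenylate signal that activates RNase L. Here 4 of 5 members were at least 2-fold higher in Maf LSEC-KO LSECs. Oas3 was at 4.56 CPM in control and 28.8 CPM in Maf LSEC-KO (log2 ratio 2.66, interval 2.40 to 2.92), from 143 and 1132 UMIs. Oas2 was at 34.4 and 96.9 CPM, a log2 ratio of 1.495. Oas1a was at 28.1 and 65.5 CPM and Oasl1 at 16.04 and 39.0 CPM. Oasl2, the member of this family with the most UMIs, was at 115 and 169 CPM, a log2 ratio of 0.56. Oas1a has near-identical neighbours such as Oas1g, so its counts are uncertain.

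The guanylate-binding proteins (GBPs) and the immunity-related GTPases (IRGs) attack the vacuoles of intracellular microbes and are classical products of interferon gamma. As a group of 9 they were at 1089 CPM in control and 1278 CPM in Maf LSEC-KO (log2 ratio 0.23), while the 32 other members were at 3746 and 5773 CPM, a log2 ratio of 0.62. Gbp3 was the 1 member of the 9 past 2-fold, at 48.3 and 102 CPM (log2 ratio 1.08, interval 0.99 to 1.16). Gbp7 was at 201 and 253 CPM and Irgm1 at 85.9 and 139 CPM. Iigp1, with the second most UMIs of all members in both libraries, was at 435 and 445 CPM. Gbp4 was at 163 and 152 CPM, Gbp2 at 61.4 and 63.8 CPM. The 3 GTPase members under 50 CPM in both libraries, Gbp5, Gbp6 and Igtp, had log2 ratios between 0.07 and 0.65. The GBP genes lie in clusters of close paralogs, so counts of single members may be split.

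Among other antiviral effectors, Bst2 had the most UMIs of all members, 21.4% of the members' UMIs in control LSECs and 18.6% in Maf LSEC-KO. It encodes tetherin, which holds budding virus at the cell surface, and was at 1037 and 1309.9 CPM. Isg20, an RNA exonuclease, was at 30.1 and 96.9 CPM, a log2 ratio of 1.69. Apol9a was at 7.30 and 47.9 CPM, a log2 ratio of 2.71 (interval 2.51 to 2.92), and its close paralog Apol9b, no member of the list, was at 2.84 and 18.1 CPM.

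Rsad2, which encodes viperin, an enzyme that makes a chain-terminating nucleotide from CTP, was at 193 and 379 CPM, just inside 2-fold (log2 ratio 0.97, interval 0.93 to 1.02). Cmpk2, its neighbour on chromosome 12, was at 56.6 and 95.2 CPM. Rtp4 was at 119 and 200.4 CPM, and Samd9l at 123 and 140 CPM. Parp14 was at 275 and 273 CPM. Trim30a had the lowest ratio of all members, at 208 and 161 CPM (log2 ratio −0.37).

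ISG15 is a ubiquitin-like protein that is joined to other proteins, and USP18 removes it and also restrains the type I receptor. Isg15 was at 128 CPM in control and 428 CPM in Maf LSEC-KO (log2 ratio 1.74, interval 1.69 to 1.79). It had a UMI in 37.3% of control and 72.5% of Maf LSEC-KO LSECs. After each LSEC had been thinned to 2700 UMIs the shares were 19.4% and 42.1%. No cell type here is known to lack Isg15, so a level of free RNA could not be set. B cell-like cells had an Isg15 UMI in 21.3% of control and 20.5% of Maf LSEC-KO cells, at median depths of 7540 and 5977 UMIs. The level of Isg15 in them was not equal, at 31.0 CPM in control and 99.5 CPM in Maf LSEC-KO, from 13 and 21 UMIs. That is a log2 ratio of 1.68 (interval 0.62 to 2.80). The LSEC gene Clec4g was at 2055 CPM in control and 351 CPM in Maf LSEC-KO B cell-like cells. The part of LSEC RNA in their Isg15 values was not tested. In LSECs, Usp18 was at 30.7 and 49.6 CPM.

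Ubd, which encodes the ubiquitin-like protein FAT10, was at 1.05 and 9.68 CPM (log2 ratio 3.20, interval 2.69 to 3.76). Its UMIs came from few cells: 6 control LSECs held 33 UMIs and 32 Maf LSEC-KO LSECs held 381, and 5 cells held 79.5% of the latter. The log2 ratio of Ubd was 1.99 without the 1% of LSECs with the largest member share, 1.81 without clusters led by hemoglobin RNA and 2.59 without LSECs that had a marker UMI of another cell type, below that of Apol9a in each case (2.77, 2.62 and 2.70). Isg15 was spread more widely, with 4.18% of its Maf LSEC-KO UMIs in the 5 cells with the most.

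Of the other induced proteins, Ifi27l2a was at 57.9 and 289 CPM, a log2 ratio of 2.32 (interval 2.25 to 2.39). It had a UMI in 14.8% of LSECs in control and 45.3% in Maf LSEC-KO, or 7.51% and 25.4% once thinned. Ifi44 was at 196 and 339 CPM, Xaf1 at 125 and 195 CPM, and Ifi35 at 68.3 and 107 CPM, with log2 ratios between 0.64 and 0.79.

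Cells differed widely within each library. In LSECs thinned to 2700 UMIs, which 308 control and 172 Maf LSEC-KO cells were too shallow for, the members had a median of 9 UMIs per cell in control (interquartile range 5 to 14) and 12 in Maf LSEC-KO (interquartile range 7 to 19). Cells with at least 20 member UMIs were 13.2% of control and 22.9% of Maf LSEC-KO LSECs. The variance was 7.86 times the mean in control and 10.2 times in Maf LSEC-KO, where counting alone gives a value near 1. The 10% of cells with the most member UMIs held 27.4% of them in control and 26.6% in Maf LSEC-KO. A thinned cell counts mitochondrial and ribosomal protein UMIs in its depth, so these values correspond to scaling by all genes.

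**Figure D2:**
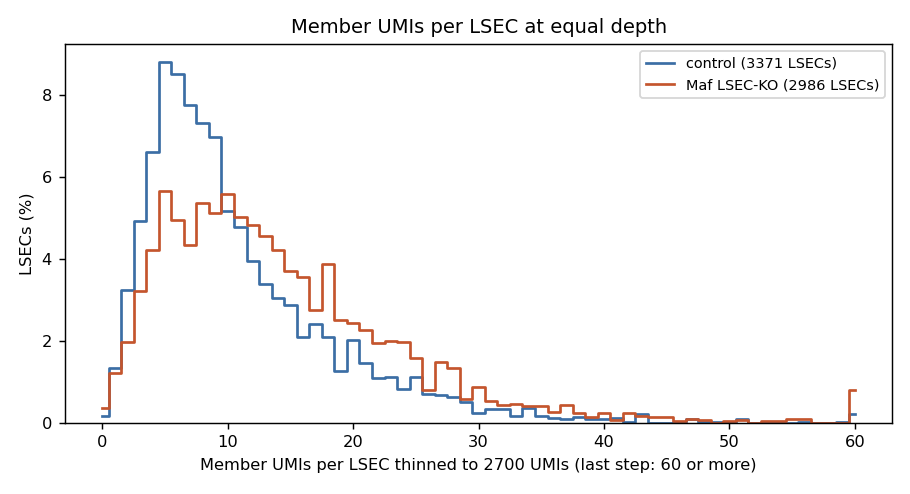
Share of LSECs (vertical axis, percent) with each number of member UMIs after thinning to 2700 UMIs per cell, for 3371 control and 2986 Maf LSEC-KO LSECs, with 60 or more as the last step. The Maf LSEC-KO curve is lower and broader and is shifted to the right, from a median of 9 to 12 UMIs, and both curves have long right tails.

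Within a library, members of different roles were high in the same LSECs. LSECs thinned to 2700 UMIs were grouped by their UMIs of the 10 IFIT, OAS and Isg15 members, and the 9 GTPase members were read out. In control, the GTPases were at 717 CPM in the 1520 LSECs without a UMI of the 10 and at 2764 CPM in the 182 LSECs with 6 or more. In Maf LSEC-KO they were at 739.7 CPM in 805 LSECs and 2647 CPM in 377 LSECs. At 0 and at 1 to 2 UMIs the intervals of the libraries overlapped, as they did at 6 or more. At 3 to 5 UMIs the GTPases were at 1598 CPM in control (interval 1525 to 1674) and 1454 CPM in Maf LSEC-KO (interval 1391 to 1520).

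The remaining 22 members, neither in the 10 nor GTPases, were higher in Maf LSEC-KO at every step, from 2141 against 2630 CPM at 0 UMIs to 6859 against 8191 CPM at 6 or more. LSECs with 6 or more UMIs of the 10 were 5.40% of control and 12.6% of Maf LSEC-KO LSECs, and those with none were 45.1% and 27.0%.

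**Figure D3:**
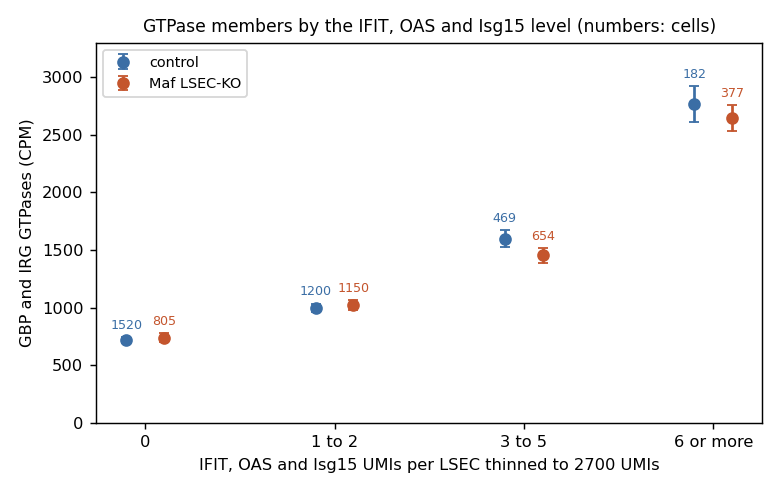
GBP and IRG members (vertical axis, CPM with exact Poisson 95% intervals) in LSECs grouped by their UMIs of the IFIT, OAS and Isg15 members after thinning to 2700 UMIs, with cell numbers beside the points. Points of both libraries climb together from about 717 and 739.7 CPM at 0 UMIs to 2764 and 2647 CPM at 6 or more.

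In the Maf LSEC-KO library, 199 LSECs kept at least 5 Maf UMIs. The members made up 0.511% of their UMIs (interval 0.501% to 0.521%), against 0.718% in the 2498 LSECs without a Maf UMI, 0.699% in the 336 with 1 and 0.724% in the 125 with 2 to 4. In control LSECs the share was 0.408% in the 16 cells without a Maf UMI (interval 0.342% to 0.482%), 0.413% in the 55 with 1 (interval 0.376% to 0.453%), 0.484% in the 176 with 2 to 4 and 0.484% in the 3432 with at least 5. The control cells with few Maf UMIs were thus not above the others, and those without one had a median depth of 2243.5 UMIs. The cells with at least 5 Maf UMIs in the Maf LSEC-KO library therefore stood apart from the other cells of their own library, with a median depth of 9928 UMIs against 13928.5 in cells without a Maf UMI. Isg15 was at 170.2 CPM in the former and 441 CPM in the latter, and Ifi27l2a at 84.9 and 305 CPM. Of the interferon-induced chemokine genes, Cxcl9 was at 769 CPM in the former and 540 CPM in the latter, and Cxcl10 at 167 and 356 CPM.

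Over the members, 11 of 41 were at least 2-fold higher in the cells without a Maf UMI than in those with at least 5, and 0 were at least 2-fold lower, where 6.69% of 10150 genes were higher and 4.18% lower. The median log2 ratio was 0.56 over the members and 0.07 over all genes. Irf7 was at 280 CPM without a Maf UMI and 133 CPM with at least 5, and Oas3 at 30.2 and 7.89 CPM. Iigp1 was at 451 and 365 CPM and Stat2 at 88.5 and 89.8 CPM. These cells share 1 library, but they are not replicates.

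LSECs with at least 2 UMIs of the cycling genes Mki67 and Top2a had a member share of 0.524% in control (75 cells) and 0.644% in Maf LSEC-KO (671 cells). In the other LSECs the share was 0.482% and 0.734%. The cycling cells were therefore above the rest in control and below it in Maf LSEC-KO, at median depths of 15260 and 21718 UMIs.

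Along the liver lobule, LSECs with at least 3 landmark UMIs were ordered by the share of 6 periportal among 6 periportal and 6 pericentral landmark genes. From the most pericentral to the most periportal quartile, the member share was 0.443%, 0.445%, 0.506% and 0.561% in control. In Maf LSEC-KO it was 0.649%, 0.670%, 0.756% and 0.786%. The most periportal quartile was the highest in both libraries, and the Maf LSEC-KO library was above control in each quartile. The median depth of that quartile was the lowest of the 4 in both libraries, 7353.5 and 12000.5 UMIs, and its part in the difference was not tested. The pericentral landmarks were themselves at 997 CPM in control and 149 CPM in Maf LSEC-KO cells, so quartiles of the libraries are not the same places.

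**Figure D4:**
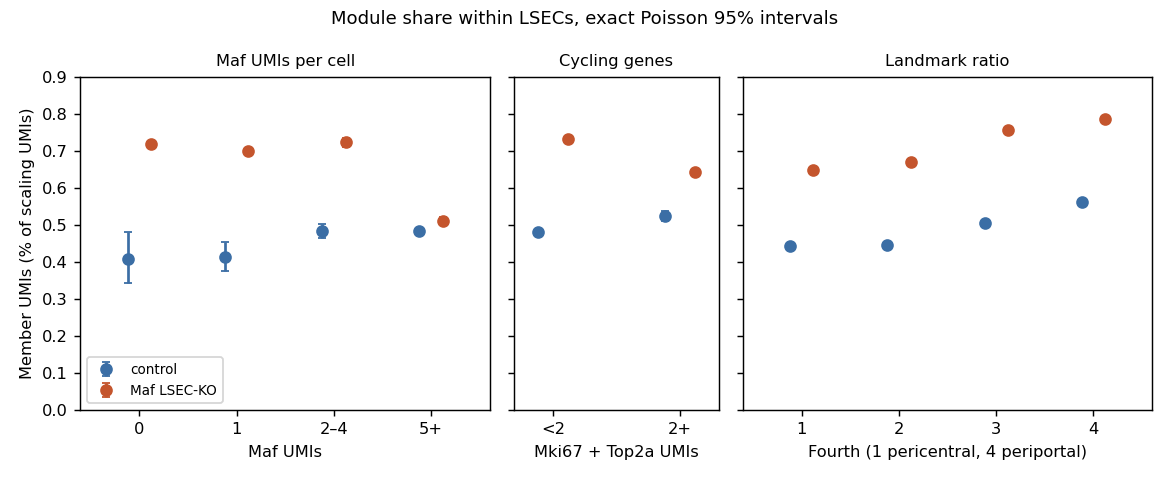
Member share of UMIs (vertical axis, percent, with exact Poisson 95% intervals) in LSECs of each library, by Maf UMIs per cell, by UMIs of the cycling genes and by quartiles of the landmark ratio from pericentral to periportal. Maf LSEC-KO lies above control at each step, and at 5 or more Maf UMIs it comes down to 0.511%, beside 0.484% in control.

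LSECs were clustered within each library without the members among the genes used. In control, cluster 2 (846 LSECs) had a member share of 0.747%, and the 7 other clusters of at least 50 LSECs lay between 0.340% and 0.533%. Cluster 2 also had the highest level of the interferon-induced chemokine genes Cxcl9 and Cxcl10 in control, 1155 and 536 CPM. The 7 such Maf LSEC-KO clusters lay between 0.505% and 0.885%. The lowest of them, cluster 7 (201 LSECs), had Maf at 2338 CPM, and in each of the 6 others Maf was under 50 CPM. Of the 7, cluster 7 had the highest level of Cxcl9, 818 CPM, and the lowest of Cxcl10, 141 CPM. Genes linked to the members can still shape clusters, so these shares are a description.

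Endothelial-like cells with a UMI of Vwf, a gene of larger vessels, were 117 in control and 1008 in Maf LSEC-KO. They came from the same clusters as the LSECs and were set apart by that UMI alone. Clec4g was at 1902 CPM in control and 1242 CPM in Maf LSEC-KO cells of this class, against 3031 and 1522 CPM in LSECs. They are thus not shown to be cells of larger vessels. The member share of these Vwf-positive cells was 0.561% in control (interval 0.549% to 0.575%) and 0.719% in Maf LSEC-KO (interval 0.715% to 0.724%). Of 40 members tested in them, 5 were at least 2-fold higher in Maf LSEC-KO and 0 were lower, where 8.24% of 10156 genes were higher and 4.39% lower. Oas3 was at 4.68 and 27.3 CPM, from 6 control UMIs, and Isg20 at 42.2 and 94.6 CPM. Oas3, 1 of the 5, passed the filter of 5 CPM through its Maf LSEC-KO level. Isg15 was at 252 and 484 CPM.

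Immune cells are not the target of Clec4g-iCre. Macrophage-like cells were 226 in control and 392 in Maf LSEC-KO. Their member share was 0.843% in control (interval 0.829% to 0.858%) and 0.703% in Maf LSEC-KO (interval 0.693% to 0.714%), a log2 ratio of −0.26. In LSECs the log2 ratio had the opposite sign. Intervals of the ratio lay below 0 for 19 members, above 0 for 4 and across it for 18. The 19 include Ubd, with 6 UMIs in control and 0 in Maf LSEC-KO. The like share over all genes is not given here, so these counts are not a result about the members. With genes of at least 50 CPM, 33 members were tested in macrophage-like cells, of which 1 was at least 2-fold lower and 0 were higher, where 5.61% of 3653 genes were lower and 1.83% higher.

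That 1 member was Isg15, at 488 CPM in control and 216 CPM in Maf LSEC-KO macrophage-like cells. Ifi27l2a, the member with the most UMIs in this class, was at 1764 and 1249 CPM. Irf7 was at 678 and 619 CPM and Bst2 at 873 and 766 CPM. Oas2 and Oas3 were among the 4 members with intervals above 0, with log2 ratios of 0.38 and 0.57, beside Oasl2 and Gbp3. The LSEC gene Clec4g was at 1015 CPM in control and 218 CPM in Maf LSEC-KO macrophage-like cells, so RNA of LSECs was part of both values and differed between the libraries, and its part in the difference was not tested.

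Neutrophil-like cells, 40 in control and 86 in Maf LSEC-KO, had member shares of 0.933% and 1.33%, a log2 ratio of 0.51. Cells of this class were very unequal: the median cell had 0.318% and 0.614%, and 10% of cells lay above 2.31% and 4.28%. Ifi27l2a was at 1919 and 3997 CPM and Rsad2 at 486 and 1217 CPM. The GTPase members had the opposite sign, 1109 CPM in control and 559.8 CPM in Maf LSEC-KO. Clec4g was at 305 and 171 CPM in these cells.

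The 70 monocyte-like cells, found as a cluster only in the Maf LSEC-KO library, had a member share of 1.003%, of which Ifi27l2a was 32.9%. T/NK cell-like cells (26 and 62) had 0.464% and 0.472%, and B cell-like cells (47 and 39) had 0.410% and 0.386%, in both cases with intervals that overlapped between the libraries. The log2 ratio of the sum was 0.02 (interval −0.11 to 0.16) in T/NK cell-like cells and −0.09 (interval −0.21 to 0.03) in B cell-like cells. Single members differed in direction: in T/NK cell-like cells Ifi27l2a was at 1681 and 865 CPM and Bst2 at 93.0 and 374 CPM, and in B cell-like cells Ifi27l2a was at 526 and 1299 CPM and Bst2 at 774 and 341 CPM. Clec4g was at 2055 CPM in control and 351 CPM in Maf LSEC-KO B cell-like cells, against 3031 and 1522 CPM in LSECs.

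**Figure D5:**
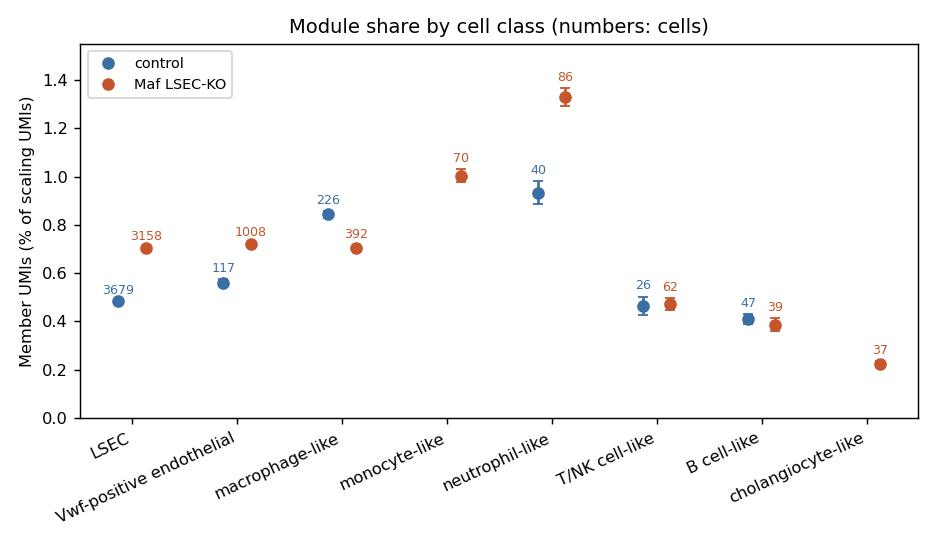
Member share of UMIs (vertical axis, percent, with exact Poisson 95% intervals) by cell class and library, with the number of cells beside each point. Maf LSEC-KO lies above control in LSECs, Vwf-positive endothelial-like and neutrophil-like cells and below it in macrophage-like cells, and monocyte-like and cholangiocyte-like clusters were found in 1 library.

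Interferon ligands were nearly absent from LSECs. None of 14 genes, those of interferons and of the related cytokine IL-27, passed 5 CPM, and together they had 13 UMIs in control LSECs and 18 in Maf LSEC-KO. For a count of 0, the exact interval reached up to 0.118 CPM in control and 0.0937 CPM in Maf LSEC-KO LSECs. Ifng, the type II interferon, was found mainly in T/NK cell-like cells, with 15 UMIs in 6 control cells and 37 UMIs in 21 Maf LSEC-KO cells. Ifnb1, a type I interferon, had 1 UMI in control, in a macrophage-like cell, and 81 in Maf LSEC-KO. Of the latter, 80 were in 1 Vwf-positive endothelial-like cell.

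The receptors were measured at similar levels in both libraries. Ifnar1 was at 67.7 and 83.5 CPM and Ifnar2 at 203 and 180.4 CPM in control and Maf LSEC-KO LSECs. Ifngr1 was at 88.3 and 107 CPM, Ifngr2 at 89.6 and 107 CPM, and Il10rb, a subunit of the type III receptor, at 107 and 104 CPM. Ifnlr1, the specific subunit of that receptor, had 1 UMI in each library.

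Of the kinases and STATs, Jak1 was at 1442 CPM in control and 895 CPM in Maf LSEC-KO (log2 ratio −0.69). Jak2 was at 77.0 and 56.6 CPM, Tyk2 at 25.2 and 23.7 CPM, Stat3 at 118 and 89.3 CPM. None of these 4 was past 2-fold. Of 9 upstream sensors and adaptors tested, 8 lay within 2-fold and 1 was lower, Aim2, which encodes a DNA sensor of the inflammasome, at 12.9 and 3.89 CPM. Of 3 further IRF factors tested, all lay within 2-fold.

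Of 7 inhibitors tested, only Socs3, a feedback inhibitor of cytokine receptors, was past 2-fold, at 37.4 and 90.2 CPM. Socs1 was at 23.5 and 31.7 CPM, Ptpn1 at 74.0 and 84.1 CPM, Ptpn2 at 33.4 and 54.0 CPM, Ptpn11 at 72.1 and 83.1 CPM, Pias1 at 84.1 and 57.8 CPM, and Usp15 at 93.2 and 93.6 CPM. Immediate early and heat shock genes, a list of 14 were at 1702 CPM in control and 4477 CPM in Maf LSEC-KO cells, with 12 of them at least 2-fold higher. Their part in the levels of the members was not tested.

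Of a further list of 76 interferon-stimulated genes, 72 were found by symbol and 59 were tested, and 10 exceeded a 2-fold gap upward in Maf LSEC-KO and 2 downward, with a median log2 ratio of 0.34. Over all genes tested, 10.4% were higher and 4.63% lower by that fold, with a median of 0.13. The higher ones were Ly6e (618 and 1457 CPM), Psmb8 (153 and 322 CPM), Phf11d (75.5 and 199 CPM), Tap1 (68.6 and 146 CPM), Slfn9 (28.2 and 119.8 CPM), Phf11b, Slfn8, Ube2l6, Apol9b and Epsti1. Psmb8 encodes a subunit of the immunoproteasome, Tap1 the peptide transporter for antigen presentation, and Ube2l6 the conjugating enzyme of ISG15. Phf11b, Ube2l6, Psmb8 and Tap1 were just past 2-fold, with log2 ratios from 1.01 to 1.09. The count for this list with scaling to all genes, which lowered the log2 ratios of members, is not given here. The lower ones were Ifitm1 (11.6 and 1.42 CPM) and Trim30d (57.8 and 24.0 CPM).

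Markers of immune cells were low in LSECs, and the sum of each list given here was higher in the Maf LSEC-KO library. The 12 macrophage markers together were at 67.3 CPM in control and 119 CPM in Maf LSEC-KO cells, and the 7 neutrophil markers at 7.72 and 28.6 CPM, with no marker of either list at 0. The 7 B cell markers were together at 3.48 and 23.8 CPM. Only 1 of them was at least 2-fold higher, and 2 were at least 2-fold lower. The 12 T/NK cell markers were together at 3.99 and 7.59 CPM, with 3 higher and 2 lower by that fold. In the macrophage and neutrophil lists, 6 markers each were higher by that fold and 0 were lower. Ptprc, the general marker of blood cells, was at 2.17 and 4.14 CPM. When LSECs with a UMI of Adgre1, Clec4f, Ptprc, Cd52, Acta1 or Arg1 were left out, the log2 ratio of the member sum was 0.54, as with all LSECs. Erythroid RNA went the other way, with 6 genes together at 1310.4 CPM in control LSECs and 13.3 CPM in Maf LSEC-KO. Hemoglobin genes were among the leading genes of control clusters 3b, 3c and 5 and of Maf LSEC-KO cluster 1, whose cells were used as LSECs. Without these clusters the log2 ratio of the member sum was 0.49.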

How the data were processed

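The deposited values are raw UMI counts per gene and barcode. The authors aligned reads to mm10 and counted with Cell Ranger (6.0.2 per the labels, 3′ kit version 3.1 chemistry). The lowest total of a deposited barcode was 500 UMIs.

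The study's minimums of 1500 UMIs and 750 genes left 4961 control and 5423 Maf LSEC-KO barcodes. Clustering was run separately on both libraries in R 4.3.3 with Seurat 5.3.0 (log-normalization, 2000 variable genes without members, pathway, mitochondrial and ribosomal protein genes, 16 and 20 principal components, resolution 0.3), and clusters with mixed markers were split once more with 10 components. The limit set by Scrublet (scanpy 1.11.5) marked 0 cells, so the 225 and 308 cells with the highest scores were removed at the expected rate. LSECs were cells without a Vwf UMI in clusters where Pecam1 and at least 7 of 14 endothelial genes were in at least 50% of cells. In such clusters none of Adgre1, Clec4f, Ptprc, Cd52, Acta1 and Arg1 was in more than 50% of cells. Other clusters took a cell type name from at least 3 markers among their top 50 genes, and clusters with markers of several types (461 and 263 cells) were left out. The names were rebuilt here and may differ from those of the study. Normalization, cluster splits and naming limits that the methods do not give were chosen here.

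UMIs were summed per class and scaled as CPM after leaving mitochondrial and ribosomal protein genes out of the total, with exact intervals from scipy 1.17.1. No replicate exists, so no test was run. Computations were tested on simulated data. Values are given for members of at least 50 CPM in LSECs of either library, members more than 2-fold apart, and transcription factors and sensors, and others by range. For pathway lists, receptors, kinases, STATs, ligands, inhibitors and genes more than 2-fold apart are named. The members and lists were chosen with earlier results of these data known. TMM factors were from edgeR 4.0.16. The concentration of Ubd and Isg15 UMIs in few cells and the cells with Ifnb1 were looked at after values were seen. Alternatives were other scalings, cell filters, minimum levels, thinning and leaving out single members or clusters. One gene of the pathway lists is not reported here.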

Additional observations from a re-analysis of the deposited data

Results flagged for a closer look

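The same contrast had opposite signs in 2 cell classes. The member share of UMIs had a log2 ratio of Maf LSEC-KO over control of 0.54 in LSECs, the target of Clec4g-iCre, and of −0.26 in macrophage-like cells, which are not its target. With 1 library per condition the difference was not tested. Levels of Clec4g, an LSEC gene, in the macrophage-like cells were 1015 CPM in control and 218 CPM in Maf LSEC-KO, and their part in the difference was not tested.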

How the results depend on the processing

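The log2 ratio of the member sum in LSECs, 0.54, stayed above 0 in every alternative run. It was 0.35 with scaling to all genes, 0.42 with TMM, 0.41 with median-of-ratios scaling, 0.59 as a mean over cells, 0.57 in thinned cells and 0.60 without Bst2. In alternatives added after seeing the data it was 0.49 without hemoglobin-led clusters, 0.61 without cycling LSECs and 0.57 without Maf LSEC-KO LSECs that had a Maf UMI. The median log2 ratio over members, 0.65, was in the same order 0.45, 0.52, 0.52, 0.70 and 0.71 for the scalings, the mean over cells and thinning, and 0.59, 0.76 and 0.69 for the added settings. It was 0.67 with doublets kept, 0.66 with Vwf-positive cells kept, 0.64 with at least 3000 UMIs per cell, 0.64 without the 1% of LSECs with the largest member share, 0.68 with mixed clusters kept (added) and 0.56 over genes of at least 50 CPM. The count of 12 members at least 2-fold higher was 6 over genes of at least 50 CPM, where fewer members are tested. The share of all genes past 2-fold at that limit is not given here, so the count of 6 has no background beside it. All-gene scaling moved the share of higher among all 2-fold differences from 69.2% to 52.6%. In macrophage-like cells the log2 ratio of −0.26 was −0.17 with doublets kept, −0.30 as a mean over cells and −0.21 without Ifi27l2a (added). In neutrophil-like cells 0.51 became 0.41, 0.77 and 0.33 under the same settings. In T/NK cell-like cells 0.02 became 0.25 as a mean over cells and 0.38 without Ifi27l2a. In B cell-like cells −0.09 became 0.57 with doublets kept, so its direction turned, and −0.48 without Ifi27l2a. Causes of these shifts were not tested. No paired analysis was possible because each condition has 1 library.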

Other observations

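One Vwf-positive endothelial-like cell of the Maf LSEC-KO library held 80 of the 81 Ifnb1 UMIs of that library. It had 31314 UMIs and 5702 genes, and 1598 of its UMIs were of members, which is 5.95% of its UMIs outside mitochondrial and ribosomal protein genes. It also had 509 UMIs of the chemokine gene Cxcl10, 189 of Ccl5, 237 of Isg15 and 115 of Ifit1, with 25 of Pecam1, 2 of Vwf and 0 of Ptprc. The cell was singled out after its values were seen.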
